A study of Catostomus macrocheilus with 21 samples.

Results

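The 100 probes described here are bright liver probes of a Columbia River survey, chosen by site means that set Longview apart from both other sites. Single fish of Longview and the other sites overlapped in all but 1 of them. The probes were chosen from 14758 non-control probes on an Agilent 1-colour array. A candidate had to be well above background on all 21 arrays, which left 7072 probes. Its Pearson correlation with the probe LSS_UF_10838, which varied widely between fish, had to be under 0.6 in absolute value, which left 5997. The Columbia City mean had to lie between the Skamania and Longview means, in the third of that interval nearest Skamania, which left 621 candidates. The members were the 100 candidates with the largest absolute unequal-variance t (the difference of means over its unpooled standard error) for Longview against the 14 fish of the other sites. Of these, 61 were higher at Longview and 39 were lower. Among the 621 candidates the division was 320 higher and 301 lower.

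The study collected liver from wild largescale suckers (Catostomus macrocheilus), labelled reproductive adults, with the aim of relating gene expression to contaminant exposure. Each array held the RNA of 1 fish, with 7 fish from Longview, 6 from Columbia City and 8 from Skamania. The groups were wild fish that differed by collection site, and the labels gave no sex, age, size or contaminant level for a fish. None of the sites is labelled as an uncontaminated control.

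The largescale sucker is a bottom-feeding freshwater fish, so it meets contaminants in sediment as well as in water. The liver makes most plasma proteins, stores and releases energy, and carries out much of the metabolism of foreign compounds. In egg-laying fish it also makes yolk proteins in females under estrogen, so the liver profile of reproductive adults can differ between the sexes. In a whole-liver extract, fewer cells of a type and less RNA per cell cannot be told apart.

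The files name each probe by the assembled contig or other sequence it stands for and give no gene name, so no function is given for a member. For the same reason the liver label was not checked against liver marker genes. Of the 100 members, 89 were named for contigs of 1 transcript assembly, all from different assembly groups. The share was 97.4% of the lower members and 83.6% of the higher members, against 93.3% of the 7072 bright probes. The mark rc stood in the names of 15 members, or 15.0%, against 20.9% of the bright probes. Probe sequences were not analysed here.

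The t that chose the members was computed on the authors' deposited log2 values. It ranged from 2.463 to 7.98 among the higher members and in absolute value from 2.467 to 5.48 among the lower ones. LSS_UF_16767 was the last probe inside the limit, at a t of 2.463. LSS_UF_22687 just missed it, at -2.459. No gap separated the members from the candidates left out. On the deposited scale the log2 differences between Longview and the other fish ran from 0.23 to 1.19 for higher members, with a median of 0.49, and from -2.23 to -0.32 for lower members, with a median of -0.55.

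Levels below are log2 processed signals minus the 75th percentile of the array, so a level of 0 equals that percentile, and each difference given is on this log2 scale. The Longview difference kept its sign on this scale for all 100 members. The median difference was 0.56 for the higher members, or 1.47-fold, with a range from 0.29 to 1.24. It was -0.55 for the lower members, again 1.47-fold, with a range from -2.07 to -0.23. The median standard error of a difference was 0.19 and 0.22 in these directions. Over all 11040 probes tested the median difference was 0.07, and over the 7072 bright probes it was 0.02. Only 9 members differed by at least 2-fold, 4 higher and 5 lower.

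These differences chose the members, so counts of limma calls describe them and are not evidence for them. A call is an adjusted p under 0.05 by limma, with Benjamini-Hochberg adjustment over all 11040 probes tested. For Longview minus the other fish, 8 members were called, 3 higher and 5 lower. Over all probes tested 2.12% were called in this comparison, 2.03% higher and 0.0906% lower, and 0.339% of the bright probes were. With only the bright probes tested and adjusted together, 1 probe was called, and it was a member. Leaving out Columbia City replicate 6 gave 12 members, and raised the count over all probes from 234 to 398. The count of members was between 2 and 5 when Columbia City replicate 2, Longview replicate 1, 2, 3, 6 or 7, or Skamania replicate 1, 2, 5, 6, 7 or 8 was left out, and lowest without Longview replicate 7 or Skamania replicate 8. Over all probes those omissions left between 159 and 232 calls. All 100 members were chosen on the rank of t, and the other 92 were not called.

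LSS_UF_21279, the member with the largest t, was the clearest case. Its level ran from 4.47 through a median of 4.93 to 5.21 at Longview, from 3.77 through 4.08 to 4.41 at Columbia City, and from 3.33 through 3.74 to 3.99 at Skamania. All 7 Longview fish lay above all 14 others. It was the only member for which the ranges did not overlap, and no overlap was seen in 0.0453% of all probes tested and 0.0424% of the bright probes. Leaving out Skamania replicate 4 raised the number of such members to 4, and leaving out Longview replicate 2, 3 or 5 raised it to 2. Leaving out a fish makes overlap less likely for any probe, and no share over all probes was computed for these omissions. The Longview mean of LSS_UF_21279 was 4.84 ± 0.28 (SD, n = 7). The Columbia City fish averaged 4.04 ± 0.24 (SD, n = 6). The Skamania fish averaged 3.68 ± 0.24 (SD, n = 8). The difference from the other fish was 1.01 with an SE of 0.15, or 2.01-fold. Within slides 1, 2 and 3 it was 1.15, 0.85 and 1.03, with SEs of 0.35, 0.30 and 0.36, and it was not called within a slide. The same fish chose this member, so the values by slide are a description.

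The other higher members that were called overlapped with some fish of the other sites. LSS_UF_18800 ran from -2.37 through -2.09 to -1.66 at Longview, from -3.07 through -2.46 to -2.07 at Columbia City, and from -3.14 through -2.73 to -2.56 at Skamania. All 7 Longview fish were above every Skamania fish, while Columbia City replicates 3 and 6, at -2.34 and -2.07, stood among the Longview fish. LSS_UF_14405 ran from 2.96 through 3.45 to 3.86 at Longview, from 2.56 through 2.85 to 3.20 at Columbia City, and from 2.19 through 2.78 to 3.17 at Skamania. For this probe 5 Longview fish lay above all others, and replicates 4 and 5, at 2.96 and 3.18, did not. The differences were 0.62 with an SE of 0.15 for LSS_UF_18800 and 0.62 with an SE of 0.16 for LSS_UF_14405.

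Among the called members lower at Longview, LSS_UF_20941, LSS_UF_22834 and LSS_UF_24595 had moderate differences. LSS_UF_20941 ran from 0.16 through 0.49 to 0.82 at Longview, from 0.67 through 1.05 to 1.66 at Columbia City, and from 0.61 through 1.22 to 1.95 at Skamania. For it 5 Longview fish lay below all others. LSS_UF_22834 ran from 0.60 through 0.98 to 1.19 at Longview, from 0.96 through 1.42 to 1.81 at Columbia City, and from 1.27 through 1.57 to 1.83 at Skamania. Every Longview fish was below every Skamania fish, and Columbia City replicates 5 and 2, at 0.96 and 1.07, lay within the Longview range. LSS_UF_24595 ran from 0.61 through 1.06 to 2.02 at Longview, from 1.19 through 1.90 to 2.41 at Columbia City, and from 1.38 through 2.11 to 2.36 at Skamania. Longview replicate 4, at 2.02, stood at the level of the other sites, and 5 Longview fish lay below all of their fish. The differences of LSS_UF_20941, LSS_UF_22834 and LSS_UF_24595 were -0.70, -0.57 and -0.80, with SEs of 0.18, 0.14 and 0.20.

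LSS_UF_18675 and LSS_UF_23505 were lower by a larger amount. LSS_UF_18675 ran from -3.48 through -2.07 to -1.60 at Longview, from -1.58 through -0.83 to 0.14 at Columbia City, and from -2.81 through -0.67 to -0.06 at Skamania. All Longview fish were below every Columbia City fish, and the only Skamania fish among them was replicate 4, at -2.81. The difference was -1.48 with an SE of 0.32, or 2.78-fold. LSS_UF_23505 ran from 0.15 through 2.04 to 3.37 at Longview, from 2.83 through 3.48 to 4.49 at Columbia City, and from 2.49 through 3.82 to 4.38 at Skamania. Its Longview fish were spread over more than 3 log2 units, with replicate 2 lowest and replicates 6, 4 and 1 inside the range of the other sites. The difference was -1.54 with an SE of 0.39, or 2.91-fold.

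**Figure D1:**
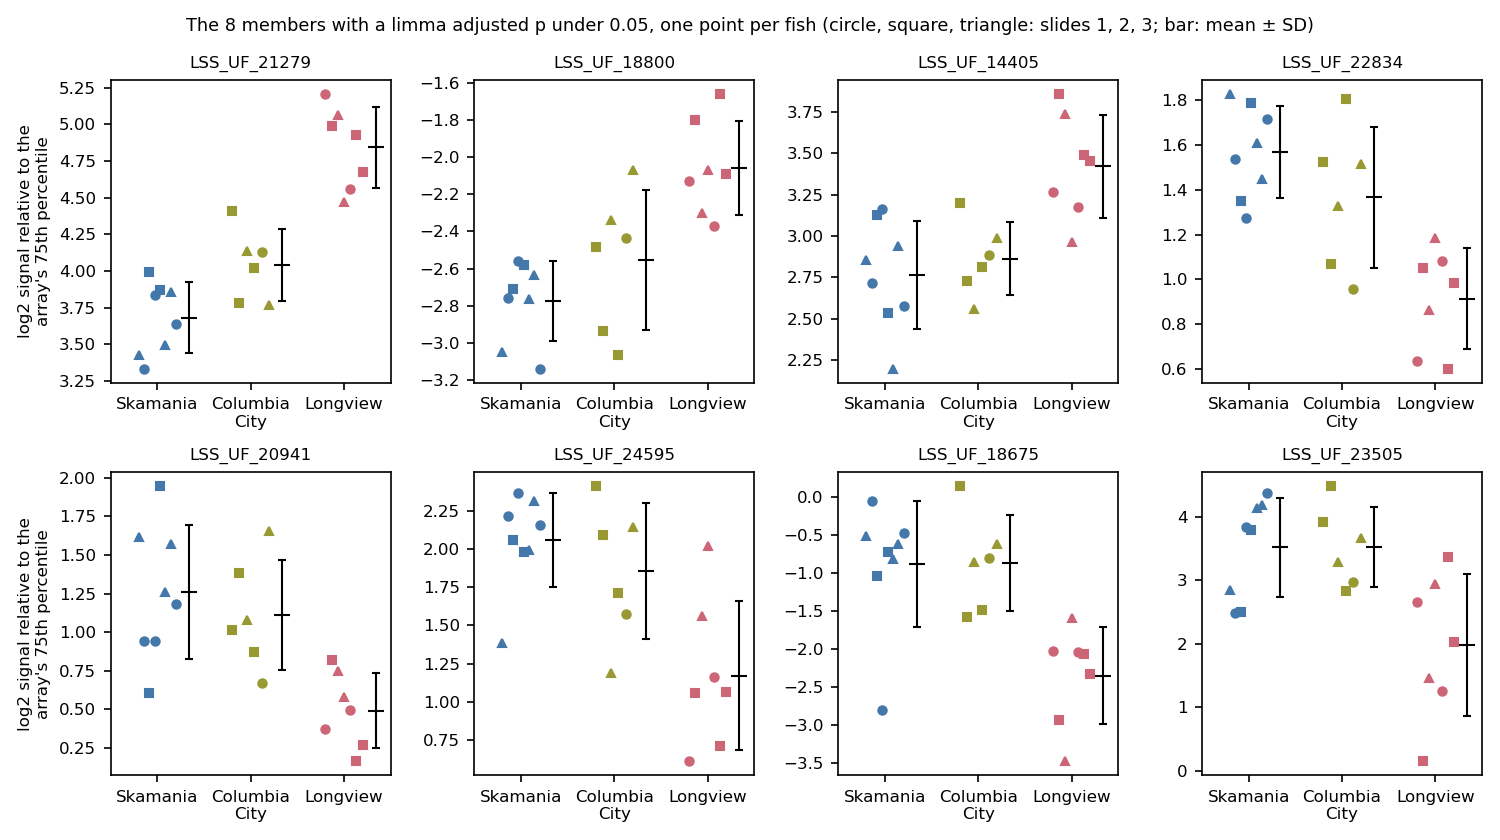
The level of the 8 called members in each fish, as log2 signal relative to the 75th percentile of the array, by site, with circles, squares and triangles for slides 1, 2 and 3 and a bar for the mean ± SD of a site. LSS_UF_21279 has no Longview fish within the range of the other sites, whereas in the other panels at least 1 fish crosses.

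The largest differences among all members belonged to 2 lower probes that were not called, and these were chosen for description after their values were seen. LSS_UF_14747 ran from 0.70 through 3.69 to 5.90 at Longview, from 3.17 through 5.61 to 7.26 at Columbia City, and from 3.39 through 5.89 to 7.20 at Skamania. LSS_UF_10998 ran from -0.05 through 2.78 to 4.24 at Longview, from 1.83 through 3.56 to 7.25 at Columbia City, and from 1.04 through 4.75 to 6.45 at Skamania. Both varied widely at every site and most of their Longview fish lay within the range of the others, with 2 Longview fish below all other fish for each. The differences were -2.07 with an SE of 0.63 for LSS_UF_14747 and -1.96 with an SE of 0.76 for LSS_UF_10998.

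LSS_UF_16314, LSS_UF_21053 and LSS_UF_19245 were among the higher members with the largest t and were not called. LSS_UF_16314 ran from 2.85 through 2.98 to 3.26 at Longview, from 1.91 through 2.58 to 2.82 at Columbia City, and from 1.87 through 2.40 to 3.05 at Skamania. All Longview fish were above every Columbia City fish, and Skamania replicate 4, at 3.05, was the only Skamania fish in the Longview range. LSS_UF_21053 ran from -2.30 through -1.92 to -1.66 at Longview, from -2.88 through -2.60 to -1.97 at Columbia City, and from -3.71 through -2.80 to -1.98 at Skamania. LSS_UF_19245 ran from 0.40 through 0.82 to 1.20 at Longview, from -0.09 through 0.18 to 0.60 at Columbia City, and from -0.41 through 0.13 to 0.45 at Skamania. For each of the last pair 4 Longview fish lay above all others. The differences of LSS_UF_16314, LSS_UF_21053 and LSS_UF_19245 were 0.56, 0.74 and 0.57, with SEs of 0.17, 0.21 and 0.15.

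The 6 remaining higher members among the first 12 by t were not called for Longview minus the other fish. The differences were 0.56 for LSS_UF_19239, 0.65 for LSS_UF_14386, 0.68 for LSS_UF_17515, 0.48 for LSS_UF_17530, 0.57 for LSS_UF_16442 and 0.44 for LSS_UF_14054. Their SEs lay between 0.15 and 0.20. In each, 3 or 4 Longview fish lay above all other fish, and the rest fell within their range. LSS_UF_17515 was also called for Longview minus Skamania, where its difference was 0.80, against 0.52 for Longview minus Columbia City.

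Among the lower members with a large t, LSS_UF_18140 was tightly grouped at Longview. Its level there ran from 0.14 through 0.43 to 0.86, against 0.97 through 1.27 to 1.62 at Columbia City and -0.49 through 1.70 to 2.27 at Skamania. Every fish of the other sites was above the highest Longview fish except Skamania replicate 4, at -0.49, which was below the lowest. The difference was -0.94 with an SE of 0.27. LSS_UF_22325 ran from -0.50 through -0.35 to -0.05 at Longview, from -0.23 through -0.09 to 0.21 at Columbia City, and from -0.30 through 0.04 to 0.57 at Skamania. For it 6 Longview fish lay below all others and replicate 3, at -0.05, did not. Its difference was small, -0.36 with an SE of 0.13.

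The other lower members among the first 12 by t had differences between -0.35 and -0.90. These were -0.35 for LSS_UF_16396, -0.49 for LSS_UF_13127, -0.56 for LSS_UF_23166, -0.68 for LSS_UF_16060 and -0.90 for LSS_UF_19383. LSS_UF_16396 had the narrowest Longview spread of the 24 probes described by t, a mean of 1.52 ± 0.12 (SD, n = 7). Its Columbia City mean was 1.83 ± 0.22 (SD, n = 6), and its Skamania mean 1.91 ± 0.18 (SD, n = 8). LSS_UF_19383 was spread out at Longview, where its mean was 0.59 ± 0.70 (SD, n = 7). Columbia City stood at 1.35 ± 0.43 (SD, n = 6), and Skamania at 1.58 ± 0.32 (SD, n = 8). Replicates 3, 4 and 2, at -0.35, -0.03 and 0.00, held its low Longview values, and the other 4 Longview fish were within the range of the other sites.

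Across all 100 members, separation of single fish was partial. In 30 members at least 4 Longview fish lay beyond all 14 others on the side of the Longview difference. In 7 members no Longview fish did. Partial separation was not counted over all probes, so these counts only describe the members. Besides LSS_UF_21279 and LSS_UF_22325, 6 Longview fish lay beyond all others in LSS_UF_18051 and LSS_UF_12978, both higher at Longview. The label of probes set apart at Longview describes site means, which the rule itself fixed. It describes whole ranges in only 1 member. Longview fish were not uniformly more alike in the members: 48 of 100 had a larger SD at Longview than over the other 14 fish, 33 of the 61 higher and 15 of the 39 lower, against 58.7% of the bright probes. The t divides by a standard error in which the Longview SD counts more, so the choice itself favoured a small Longview SD.

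**Figure D2:**
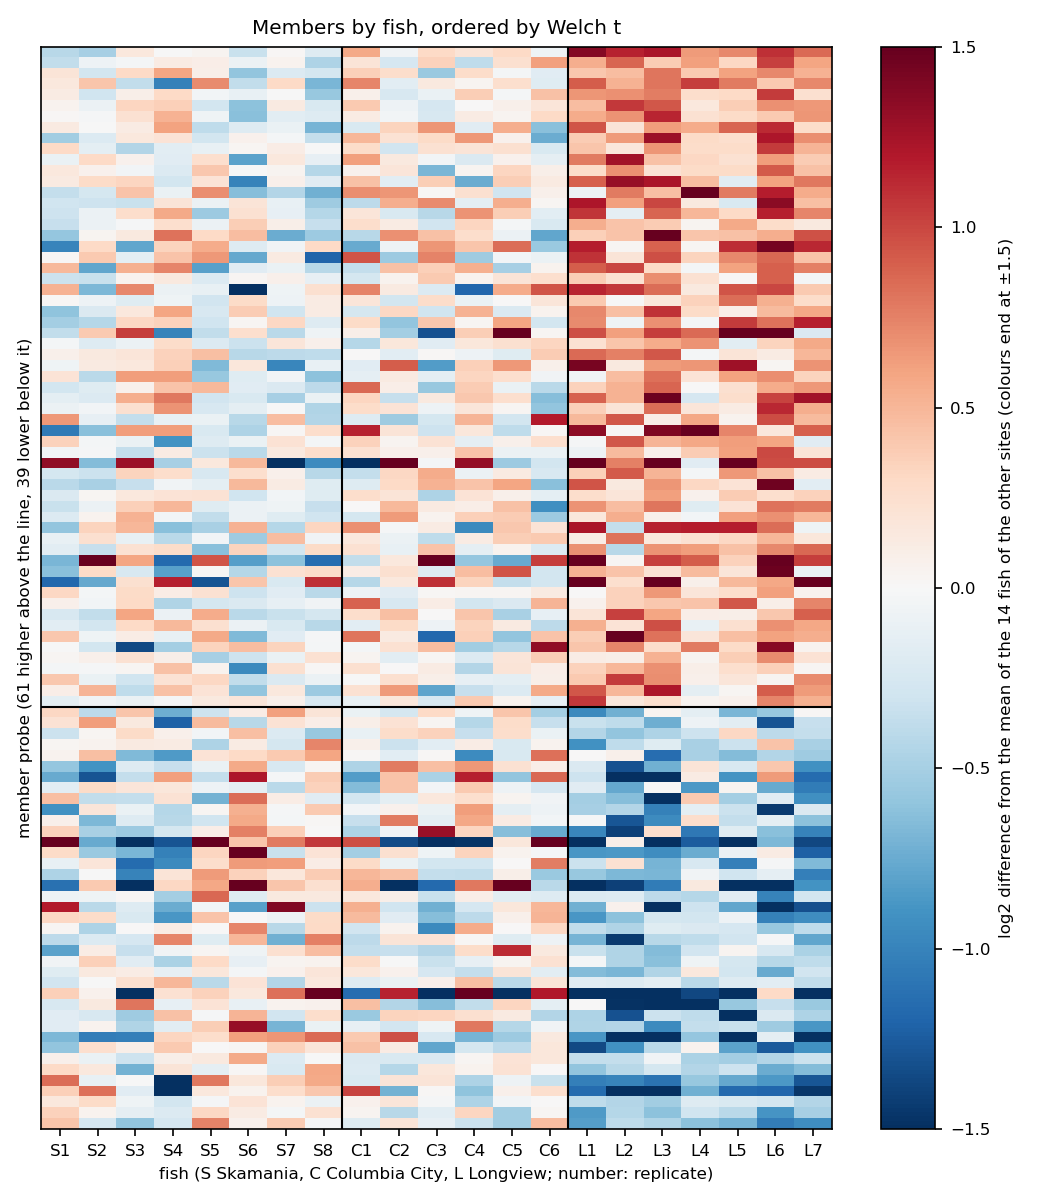
Each row is 1 of the 100 members and each column 1 fish, coloured by the log2 difference from the mean of the 14 fish of the other sites, with the 61 higher members above the line and the 39 lower members below it. The 7 Longview columns at the right carry most of the strong colour, and Longview replicates 4 and 5 are paler than the rest.

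The Longview fish differed in how far they stood from the others. The median difference of a fish from the mean of the 14 other fish, over the 61 higher members, was lowest in Longview replicate 4, at 0.27, and replicate 5, at 0.34. It was highest in replicates 3 and 6, at 0.69 and 0.72. Over the 39 lower members it ran from -0.31 in replicate 4 and -0.33 in replicate 5 to -0.65 in replicate 3 and -0.66 in replicate 7. Replicates 4 and 5 were thus nearest to the other sites in both directions. Replicate 4 lay beyond all fish of the other sites in 17 members and replicate 5 in 25, against 55 for replicate 3 and 52 for replicate 6. For these counts, too, no share over all probes was computed. In replicates 3 and 6 all 61 higher members were above the mean of the other sites.

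At the other sites, the fish medians lay between -0.20 and 0.20 for the higher members and between -0.20 and 0.21 for the lower members. Unlike a Longview fish, each of these fish is part of the mean it is compared with, which makes its difference somewhat smaller. No fish of these sites reached the Longview medians, which the choice of the members favoured, so it is a description. For the higher members Skamania replicate 4, at 0.20, Columbia City replicate 4, at 0.17, and Skamania replicate 3, at 0.16, came nearest. For the lower members Skamania replicates 3 and 4, at -0.20 and -0.15, came nearest, while Columbia City replicate 4 was at 0.03. Skamania replicates 6 and 8 stood farthest away, at -0.19 and -0.20 for the higher members and 0.21 and 0.20 for the lower members. Skamania replicate 4 was past the Longview median in 19 members, more than any other fish outside Longview, and Skamania replicate 8 was past it in 3.

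**Figure D3:**
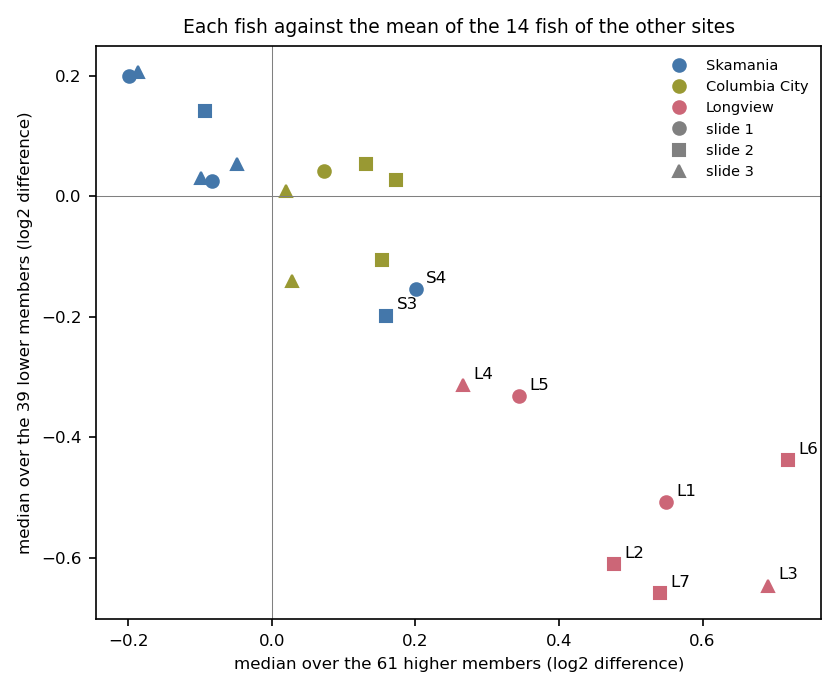
Each point is 1 fish, placed by its median log2 difference from the mean of the 14 fish of the other sites over the 61 higher members (horizontal) and the 39 lower members (vertical), with colour for site and shape for slide. Longview replicates 4 and 5 lie nearest to the other sites, and Skamania replicates 3 and 4 lie toward Longview in both directions.

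Beyond the difference between sites, pairs of members were weakly correlated, with a positive median within a direction and a negative one between directions. With site means removed, the median correlation between 2 higher members across the 21 fish was 0.09, over 1830 pairs, and between 2 lower members 0.09, over 741 pairs. Between a higher and a lower member it was -0.07, over 2379 pairs. Over all pairs of bright probes the median was 0.004. The share of pairs with r above 0.5 was 7.32% among higher members and 7.15% among lower members, against 6.35% over all bright pairs. Between a higher and a lower member it was 1.68%. These pairs share arrays and their scaling and are given as a description.

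The Longview values were also set against each other site alone. Both of these comparisons share the Longview fish, and the rule fixed the place of the Columbia City mean. For Longview minus Skamania the median difference was 0.60 for the higher and -0.54 for the lower members, and 9 members were called, 4 higher and 5 lower, where 2.84% of all probes tested were called, 2.72% higher and 0.118% lower. The count of members was between 1 and 5 when Longview replicate 1, 2, 3 or 6 or Skamania replicate 1, 7 or 8 was left out. Over all probes those omissions left between 211 and 279 calls, against 313 with all arrays. For Longview minus Columbia City the medians were 0.48 and -0.54. Here limma called 0 members and 0% of all probes, and 44 members had an unadjusted p under 0.05, against 9.89% of all probes. Columbia City replicate 6 decided the count over all probes, which was 191 without it, with 1 member among them. Columbia City contributed 6 fish, and the median SE in that comparison was 0.22 for the higher and 0.26 for the lower members.

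For Columbia City minus Skamania the rule favoured small differences, since it placed the Columbia City mean near Skamania on the deposited values. The median was 0.13 for the higher members and -0.06 for the lower members, against 0.09 over all probes tested. The lower members ran from -0.40 to 0.51. The 0.51 was in LSS_UF_11724, whose difference for Longview minus Skamania was smaller in size, at -0.18. Here limma called 0 members and 0% of all probes, and 1 member had an unadjusted p under 0.05, against 9.26% of all probes. The rule held less well on the scaled processed signals than on the deposited values. On the scaled signals, 70 members kept the Columbia City mean in the third nearest Skamania. In 16 it lay outside the interval on the Skamania side, and in 14 it lay nearer Longview than the third nearest Skamania.

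The place of the Columbia City mean was not a rare one among comparable probes. Of the 5997 bright probes with a low correlation to LSS_UF_10838, 10.4% had it in the third nearest Skamania, 10.9% in the middle of the interval, 9.89% in the third nearest Longview, and 68.8% outside the interval. Ranked the same way on Longview against the other fish, the 100th probe had an absolute t of 2.17 in the middle of the interval and 1.61 in the third nearest Longview, against 2.463 for the members. The t sets Longview against both other sites, so it falls by construction as the Columbia City mean moves toward Longview. The number higher at Longview among the first 100 was 62 in the middle of the interval and 56 in the third nearest Longview, against 61 here.

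Another probe of the same assembly group was present for 7 members, and the array held 9 such probes, none of them a member. For 5 of the 9 the Longview difference had the sign of the member, and for 4 it had the opposite sign. LSS_UF_17952 differed by 0.46 with an SE of 0.19 and its neighbour LSS_UF_19542 by 0.58 with an SE of 0.17. LSS_UF_17294 differed by 1.00 with an SE of 0.36, and LSS_UF_23991 by 1.09 with an SE of 0.61. In these groups both probes were higher at Longview by similar amounts. LSS_UF_16314, in contrast, differed by 0.56 with an SE of 0.17, whereas LSS_UF_24587 of its group differed by -0.39 with an SE of 0.24. LSS_UF_13127 differed by -0.49 with an SE of 0.16, and LSS_UF_13824 by 0.28 with an SE of 0.26. These probes measure different contigs on the same fish and are not replicates of the member.

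Slide was the technical batch that the rule did not use. Each of the 3 slides carried fish of every site: Longview had 2, 3 and 2 arrays on slides 1, 2 and 3, Columbia City 1, 3 and 2, and Skamania 3, 2 and 3. By limma's F test over slides, with site means kept, 0 members were called, where 0.199% of all probes tested were called. At an unadjusted p under 0.05 there were 8 members, against 6.08% of all probes. Within slides 1, 2 and 3 the median Longview difference was 0.50, 0.49 and 0.58 for the higher members and -0.44, -0.65 and -0.42 for the lower members. The sign was reversed for 3 members on slide 1, 3 on slide 2 and 0 on slide 3. The same fish chose the members, so the differences within slides are a description and no separate check.

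Some array measures moved with the Longview group. The number of probes well above background averaged 10600 ± 832 (SD, n = 7) over the Longview arrays. Columbia City averaged 9695 ± 714 (SD, n = 6), and Skamania 9655 ± 843 (SD, n = 8). The log2 signal of ETG10_234183, a control probe, averaged 3.49 ± 0.44 (SD, n = 7) over the Longview arrays, against 2.49 ± 0.80 (SD, n = 6) for Columbia City and 2.29 ± 0.29 (SD, n = 8) for Skamania. Its lowest Longview value, 2.77, was in replicate 4, the Longview fish nearest to the other sites in the members. Its highest value outside Longview, 4.01, was in Columbia City replicate 6, whose medians over the higher and lower members were 0.02 and 0.01. Whether the signal of this control probe went with the members across fish was not tested. The spike-in probe E1A_r60_a104 averaged 5.14 ± 0.26 (SD, n = 7) for Longview. It averaged 4.23 ± 0.58 (SD, n = 6) for Columbia City and 4.17 ± 0.37 (SD, n = 8) for Skamania, and was at 5.34 in Columbia City replicate 6. Longview replicate 4 also had the lowest Longview value of E1A_r60_a104, 4.88, and the fewest Longview probes well above background, 9431. Whether these measures went with the members across fish was not tested either.

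With ETG10_234183 as a covariate, the median difference was 0.50 for the higher members and -0.48 for the lower members, and the sign was kept in all 100. limma then called 0 members and 0% of all probes, and 32 members had an unadjusted p under 0.05, against 7.12% of all probes. With E1A_r60_a104 as a covariate the medians were 0.48 and -0.49, 12 members were called, against 4.55% of all probes, and the sign was reversed in 6 members. At an unadjusted limma p under 0.05 there were then 45 members, against 20.6% of all probes. With no covariate there were 87 members, against 13.0% of all probes. Both control probes differed between Longview and the other sites, so each covariate also takes up part of the site difference, and these measures cannot be told apart from site.

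LSS_UF_10838, the probe used to set aside the main axis of variation, varied widely within each site. On the deposited log2 scale it ran from 8.996 through a median of 13.1 to 16.6 at Longview. It ran from 3.51 through 5.91 to 17.2 at Columbia City, and from 5.07 through 16.9 to 17.2 at Skamania. Columbia City replicates 1 and 6 were at 16.5 and 17.2, and the other Columbia City fish were at 6.47 or lower. Skamania replicates 3, 4 and 6 were at 5.75, 7.54 and 5.07, and the other Skamania fish were at 16.9 or higher. The ranges of these sites thus nearly coincided, although their medians differed. The members' correlation with LSS_UF_10838 lay between -0.49 and 0.56. With LSS_UF_10838 as a covariate, 19 members were called for Longview minus the other fish, 9 higher and 10 lower, against 3.90% of all probes. At an unadjusted p under 0.05 there were 86 members, against 18.2% of all probes, and the medians were 0.56 and -0.52.

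Membership depended on single fish more than the differences did. When the rule was applied again without 1 array, between 57 and 86 of the 100 members were chosen again. The lowest count was without Columbia City replicate 3 and the highest without Skamania replicate 2. Leaving out a Columbia City fish gave 57 to 71, leaving out a Longview fish 65 to 83, and leaving out a Skamania fish 68 to 86. With no condition on the Columbia City mean, 27 members were chosen again. On the scaled processed signals 67 were chosen again, with the moderated t of limma 77, and with a pooled-variance t 80. A set of 9 members was chosen in every one of the 21 repeats, and they included LSS_UF_21279, LSS_UF_20941, LSS_UF_14405 and LSS_UF_24595. LSS_UF_18675 was chosen in 15 and LSS_UF_23505 in 13.

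**Figure D4:**
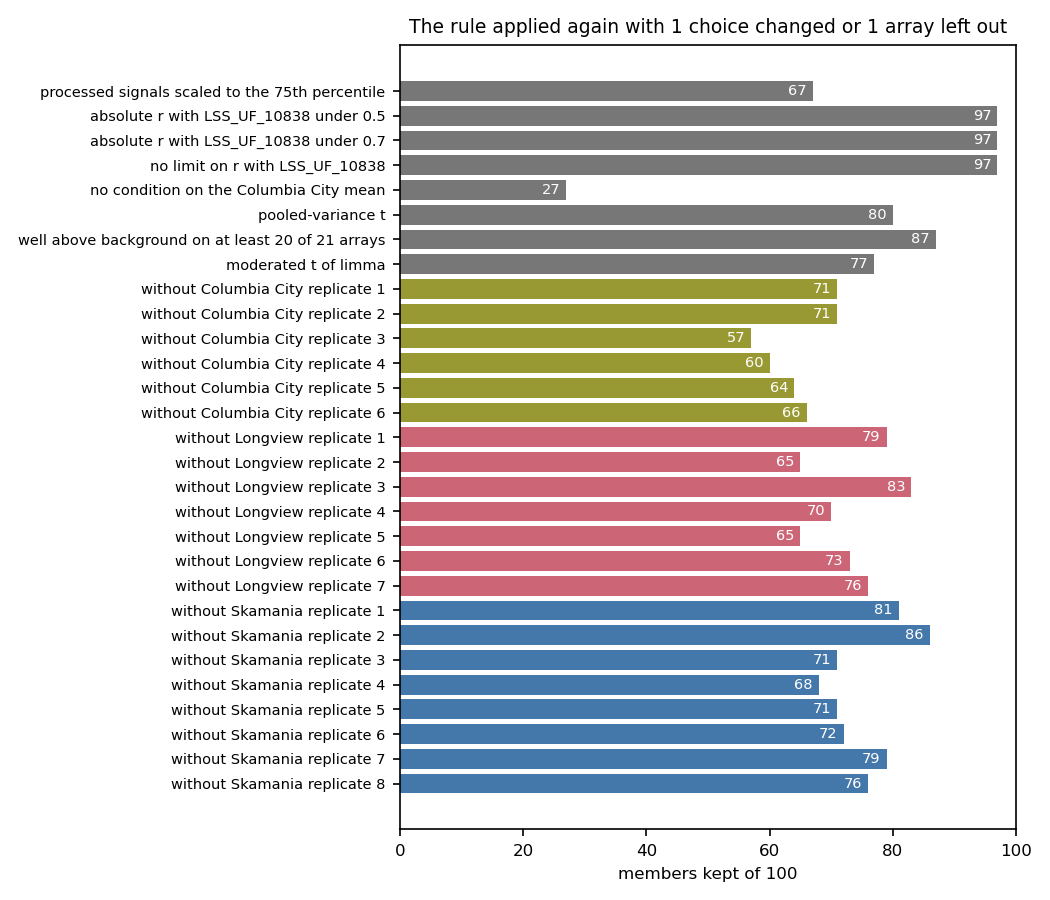
The number of the 100 members chosen again when the rule was applied with 1 choice changed (grey) or with 1 array left out (coloured by site, as in the plots of fish). Changing the limit on the correlation with LSS_UF_10838 kept 97 members, and dropping the condition on the Columbia City mean kept 27.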

How the data were processed

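Per the labels' protocols, liver RNA was cleared of DNA before Cy3 labelling as cRNA. In the deposited scanner output each spot has a linear intensity and 0 or 1 flags. The arrays were read with Agilent Feature Extraction 9.1 per the submitters' processing notes and 10.1.1.1 per the file headers. The authors' deposited table holds log2 values with a common column median of 6.10, equalised by a step the labels do not name. The members were chosen on this table. It held 117 missing values, none in a member.

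Log2 processed signals were averaged over spots without outlier flags (555 of 319368 were flagged and 0 saturated), less each array's 75th percentile. Each member was printed 1 time. The 11040 probes that 6 or more of the 21 arrays showed well above background were tested two-sided in R 4.3.3 by limma 3.58.1, each site having 1 mean, after a check on simulated data. The number of arrays limits the precision. An array detected between 8179 and 11806 probes.

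Described by name are the 12 higher and 12 lower members with the largest absolute t, the threshold pair, and others where stated. The members and this rule were chosen with earlier results of these data known. Shuffled labels were not used. Alternatives covered normalization, background, the deposited log2 values, filters, slide, replicate number, covariates and leaving out each array. Figures used matplotlib 3.10.9.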

Additional observations from a re-analysis of the deposited data

Results flagged for a closer look

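Within each site, the 24 members described by t and the fish medians were searched by Dixon's gap for single fish lying apart, in 78 groups of values. A fish stood apart in 9, where chance alone flags about 1 in 20 groups. Skamania replicate 4 was low in 2 lower members, at -2.81 in LSS_UF_18675, against -1.05 to -0.06 in the other Skamania fish, and at -0.49 in LSS_UF_18140, against 1.31 to 2.27. Columbia City replicate 4 was at 1.41 in LSS_UF_16396, against 1.84 to 2.06, and at 0.42 in LSS_UF_23166, against -0.80 to -0.42. Columbia City replicate 3 was at 1.87 in LSS_UF_14054, against a lowest value of 2.599 in the other fish. Skamania replicate 6 was at 2.27 in LSS_UF_16442, against 2.90 to 3.37. Skamania replicate 1 was at 1.38 in LSS_UF_24595, against 1.98 to 2.36. Skamania replicate 3 was at 2.29 in LSS_UF_19383, against 1.24 to 1.69. Longview replicate 3 was at -0.0518 in LSS_UF_22325, against -0.50 to -0.32 in the other Longview fish. No fish stood apart in the medians over members.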

How the results depend on the processing

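The median differences of the higher and lower members kept their sign under every alternative run. Without 1 array they ran from 0.499 to 0.591 and from -0.597 to -0.505. The same fish chose the members and their direction, so the signs kept, here and below, are a description and no separate check. The 8 members called for Longview minus the other fish became 1 with normexp and 1 when only the bright probes were tested. The count was 0 within slide 2 or 3, 0 with ETG10_234183 as a covariate and 19 with LSS_UF_10838 as a covariate. Over all probes tested, the 234 calls became 3 with normexp, 1 among the bright probes and 0 within slide 2 or 3. They became 0 with ETG10_234183 and 431 with LSS_UF_10838. Without 1 array the count of members ran from 2 to 12. The 9 members called for Longview minus Skamania became 1, 1, 0, 0 and 15 under the same settings, and 1 to 12 without 1 array. Over all probes tested, the 313 calls in that comparison became 13, 1, 0 and 0, and rose with LSS_UF_10838. With normexp, the bright probes, slide 2 or 3 and these covariates, the member counts thus moved in the direction of the counts over all probes. That did not always hold elsewhere. Without Longview replicate 5 the members called for Longview minus the other fish fell to 7, while all probes rose to 250. On the deposited log2 values the members stayed at 8, while all probes fell to 150. The deviations of the 19 same-numbered pairs correlated from -0.461 to 0.402, and 3 of 21 arrays correlated best with their own number. By this measure the replicate numbers showed no consistent pairing of fish. Correlations over whole arrays would miss a pairing that affects few probes. The replicate block gave 2 and 1 member calls for Longview minus the other fish and Longview minus Skamania. Over all probes tested it gave 214 calls for Longview minus the other fish, against 234 without the block. In both comparisons the calls over all probes fell by a smaller share than the calls among members. For Longview minus Columbia City, Columbia City minus Skamania and slide, the counts of members called without 1 array were 0 to 1, 0 to 0 and 0 to 1. The member with no overlap became 0 with normexp, and without 1 array the count was 1 to 4. For overlap, no share over all probes was computed under these settings. The rule kept 27 members with no condition on the Columbia City mean, 67 on the scaled processed signals and 57 to 86 without 1 array. For the 24 members described by t, 133 of the values under alternatives lost a call, 21 gained one, 662 stayed on their side of the threshold, and 0 changed sign. The causes were not tested. The normexp setting used median spot signals and median local background.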
